A study of Rattus norvegicus with 8 samples.

Results

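Kainate receptor subunits were followed across 8 arrays of rat hippocampal slice cultures through every probe set whose single platform gene symbol was Grik1, Grik2, Grik3, Grik4 or Grik5. A probe set is the group of array probes that reports 1 transcript, and there were 5 such probe sets, 1 per gene, among 31042 probe sets that were not array controls. They are 1387309_a_at for Grik1, 1369036_at for Grik2, 1370587_at for Grik3, 1369163_at for Grik4 and 1369128_at for Grik5. Slice cultures are slices of hippocampal tissue maintained in vitro, and CA3 and CA1 are the pyramidal cell fields that were dissected from them. The groups were a CA3 lesion array, 3 CA3 control arrays, a CA1 lesion array and 3 CA1 control arrays. All were rat total RNA labelled 7 days, each array from 15 subdissected cultures. Strain, age and the agent or type of lesion are not in the labels, which also leave the start of the 7 days undefined, and each lesion group is 1 pooled array. No label says that the arrays came from separate animals or preparations, so every p-value measures only the spread between these arrays, which may be technical.

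Kainate receptors are glutamate-gated cation channels that sit before and after the synapse, where they tune transmitter release and carry slow synaptic currents. GluK1, GluK2 and GluK3, encoded by Grik1, Grik2 and Grik3, can form channels by themselves, whereas the high-affinity subunits GluK4 and GluK5, encoded by Grik4 and Grik5, reach the membrane as channels only together with one of those. In the hippocampus they are best known from the mossy fibre synapse, by which dentate granule cells contact CA3 pyramidal cells, and from interneurons.

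The genomic sequence before the annotated start is shown for Grik3 and Grik4, the subunits with the largest log2 difference between the fields in each direction. Grik1 differed by nearly as much as Grik4, and by more as a ratio of mean intensities (3.33 for Grik1, 2.90 for Grik4). The windows come from RefSeq, assembly GRCr8, which supplied all 5 subunit genes. Each holds the 250 bases before the start, 5′ to 3′, with CG dinucleotides in capitals. The Grik3 window is chr5:143052192-143052441 on the plus strand and the Grik4 window is chr8:52102064-52102313 on the minus strand.
Grik3: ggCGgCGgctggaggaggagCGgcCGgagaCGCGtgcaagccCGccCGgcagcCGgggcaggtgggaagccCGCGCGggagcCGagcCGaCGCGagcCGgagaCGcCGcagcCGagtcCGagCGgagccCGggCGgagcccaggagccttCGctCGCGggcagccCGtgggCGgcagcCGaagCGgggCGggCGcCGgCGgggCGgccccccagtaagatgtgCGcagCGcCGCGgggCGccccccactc
Grik4: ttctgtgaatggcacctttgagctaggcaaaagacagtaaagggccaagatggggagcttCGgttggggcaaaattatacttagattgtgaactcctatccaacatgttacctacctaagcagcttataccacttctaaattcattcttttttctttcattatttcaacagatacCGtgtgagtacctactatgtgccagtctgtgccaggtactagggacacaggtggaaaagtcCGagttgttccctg

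The CG dinucleotide, the site of most DNA methylation, occurred 41 times in the Grik3 window and 3 times in the Grik4 window. At least as many were held by 0.98% of 33469 RefSeq windows of this length for Grik3, and by 71.4% for Grik4. The Grik1, Grik2 and Grik5 windows held 8, 5 and 10, and the median window held 5. The Grik4 window lies inside the annotated gene, since the start used is that of 1 of several transcripts, and those of Grik1 and Grik5 also lie inside their genes. Methylation was not measured, and the arrays report transcripts, not these sequences.

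Field markers mostly followed the field labels. Their lists were chosen with earlier results of these data known, so they are not an independent check of the labels. Of 6 measured CA1 pyramidal markers, all 6 were lower on every CA3 control than on any CA1 control, against 8.56% of all probe sets. The test below was passed by 4 of the 6, against 0.526% of all probe sets tested, in either direction. Of 4 tested CA3 markers, a list without Grik4, 2 passed as higher in CA3, beside the same 0.526%. Bok (0.64) and Coch (-0.88, lower in CA3) overlapped between the fields, and Iyd was too dim to be tested. Deposited intensities had the same trimmed mean on all arrays, from 2500.9 to 2501.0. Differences were tested with limma on log2(intensity + 16), a scale that understates the change of dim probe sets, over the 18625 probe sets whose mean lay at or above the 40th percentile. A call was a Benjamini-Hochberg adjusted p under 0.05. Of the subunits 4 passed that filter, and Grik3, at the 15.8th percentile, did not, so Grik3 was read from a fit of all 31042 probe sets. Intensities were compared within a probe set only, never between subunits, since probes differ in brightness.

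Between the control fields, Grik4 was higher in CA3, and Grik3 and Grik1 were lower in CA3, each without overlap of the arrays, while Grik2 and Grik5 overlapped. None of the 4 subunits tested was called, against 0.526% of all probe sets tested, nor was Grik3 in the fit of all probe sets, where 0.354% were called. Unadjusted p-values in limma lay under 0.05 for Grik4 and Grik1 of those 4, as for 1548 of 18625 probe sets. Without overlap, 1 of 5 subunits lay above and 2 of 5 below in CA3, against 4.72% and 8.56% of all probe sets. In pooled tissue of this kind, fewer cells of a type and less RNA per cell cannot be told apart.

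**Figure D1:**
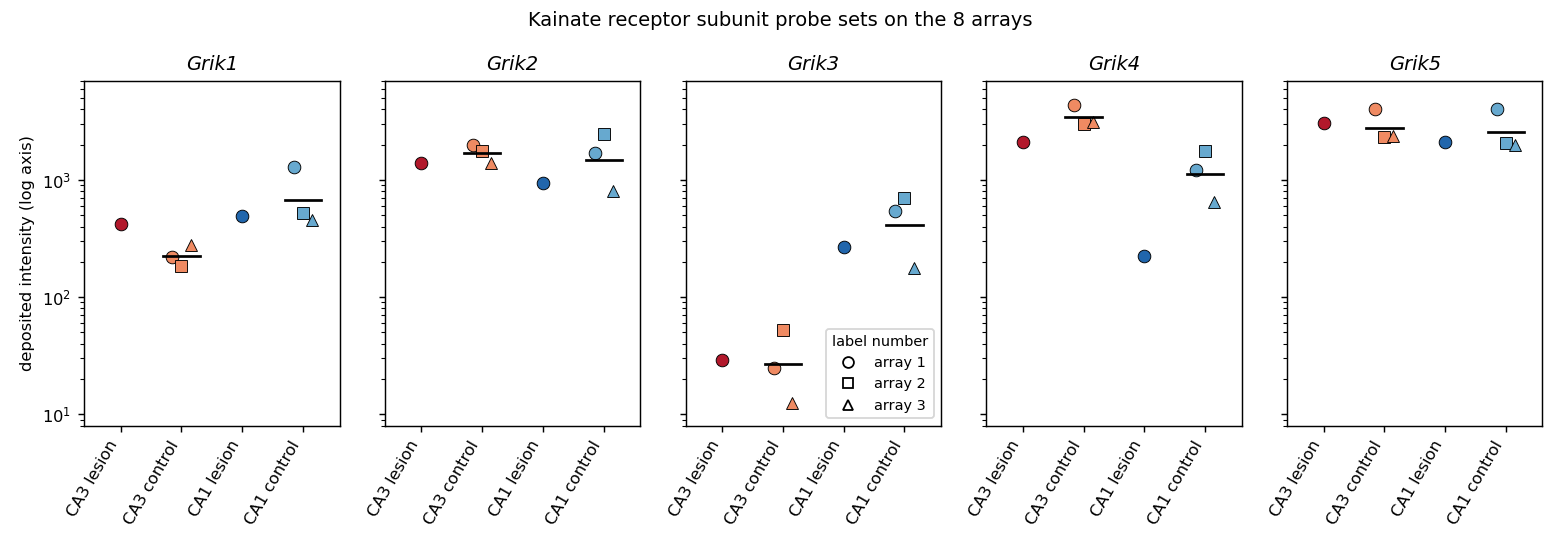
Deposited intensity of each subunit probe set on a log axis, by group; each point is 1 array, shaped by the number in its label, and bars mark the control means of log2(intensity + 16) turned back to intensity. Grik4 points of the CA3 controls lie above all CA1 controls, Grik3 and Grik1 points of the CA3 controls lie below them, and Grik2 and Grik5 overlap; heights are not comparable between panels.

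Grik4, the high-affinity subunit long used to mark CA3, had intensities of 4396, 3036 and 3106 in CA3 controls 1 to 3, against 1214, 1767 and 650 in CA1 controls 1 to 3. The lowest CA3 control lay well above the highest CA1 control, and CA1 control 3 stood lowest. The log2 difference was 1.62 ± 0.38 (SE, n = 3 arrays per field), 3.06-fold, with a 95% interval of 0.78 to 2.45 and a limma adjusted p of 0.142 (unadjusted p = 0.00152). The exact permutation p was 0.1, two-sided, the smallest that 3 arrays against 3 can give. Leaving out single arrays gave differences from 1.23, without CA1 control 3, to 1.94, without CA1 control 2. Neuron markers were higher in CA3 controls in all 8 tested genes (list median 0.60, against -0.04 for all probe sets tested). Of these 8, 2 lay above in CA3 without overlap, against 4.72% of all probe sets. The 1 called was Nefl (1.13, limma adjusted p = 0.0278), against 0.526% of all probe sets tested. The part of neuronal RNA in the Grik4 difference was not tested.

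Grik3, a subunit of low glutamate sensitivity, had intensities of 24.6, 51.9 and 12.5 in CA3 controls 1 to 3, against 545, 702 and 177 in CA1 controls 1 to 3. On the CA3 controls it stood near the bottom of the array, with 1.92%, 12.4% and 1.30% of probe sets dimmer, against 46.6%, 46.1% and 24.0% on the CA1 controls. No detection calls were used, so whether the CA3 values lie above background is not known here. The difference was -3.32 ± 0.90 (SE, n = 3 per field, limma adjusted p = 0.260, unadjusted p = 0.00274), with a 95% interval of -5.26 to -1.37. It depended on the constant added before the logarithm, at -3.96 with 1 and -2.39 with 64. The mean intensities themselves were 29.6 ± 20.2 in CA3 and 475 ± 270 in CA1 (SD, n = 3 each). The exact two-sided permutation p was again 0.1.

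Grik1, which is known from hippocampal interneurons, had intensities of 218, 183 and 279 in CA3 controls 1 to 3, against 1286, 527 and 455 in CA1 controls 1 to 3. CA1 control 1 was more than double either of the other CA1 controls, and the groups did not overlap. The difference was -1.53 ± 0.67 (SE, n = 3 per field, limma adjusted p = 0.587), with a 95% interval of -3.02 to -0.04, and -1.08 without CA1 control 1. Interneuron markers were lower in CA3 in 6 of 8 tested genes (0 called, list median -0.41, against -0.04 for all probe sets tested), and 2 of 9 measured, Sst and Vip, lay below in CA3 without overlap, against 8.56% of all probe sets. Their summed intensity ran from 57726 to 75060 in CA3 controls and from 64232 to 114151 in CA1 controls, with no value at 0. The part of interneuron RNA in the Grik1 difference was not tested.

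Grik2, the most widely used pore-forming subunit of principal cells, had intensities of 2003, 1752 and 1390 in CA3 controls 1 to 3, against 1697, 2449 and 801 in CA1 controls 1 to 3. The CA3 values fell inside the CA1 range. The difference was 0.18 ± 0.40 (SE, n = 3 per field, limma adjusted p = 0.930), with a 95% interval of -0.71 to 1.07, and -0.26 without CA1 control 3. That interval holds changes of up to about the size of a doubling, so similar levels were not shown.

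Grik5, the broadly expressed high-affinity partner subunit, had intensities of 4045, 2309 and 2370 in CA3 controls 1 to 3, against 4007, 2070 and 1988 in CA1 controls 1 to 3. Control 1 was the highest array in both fields, and controls 2 and 3 lay close together. The difference between fields was 0.14 ± 0.33 (SE, n = 3 per field, limma adjusted p = 0.937), with a 95% interval of -0.60 to 0.88, and its sign turned when CA3 control 1 was left out (-0.12). Both lesion arrays also carry the number 1 in their labels, and had 3051 in CA3 and 2105 in CA1.

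Lesion arrays were set against the controls of their own field, and Grik4 was the 1 subunit of 5 that lay below all 3 controls in both fields, as 6.81% of all probe sets did. Its intensity was 2110 on the CA3 lesion array, 60.1% of the CA3 control mean of 3512 ± 766 (SD, n = 3). It was 223 on the CA1 lesion array, 18.4% of the CA1 control mean of 1211 ± 559 (SD, n = 3). The log2 differences were -0.71 in CA3 and -2.25 in CA1, and neither was tested by itself, since each rests on a lone array. Averaged over the fields, the lesion effect was -1.48 ± 0.38 (SE over 2 lesion and 6 control arrays), with a 95% interval of -2.31 to -0.64 and a limma adjusted p of 0.673 (unadjusted p = 0.00274). None of the 4 subunits tested was called for this effect, and the share called among all probe sets was 0%, although 1193 of 18625 had an unadjusted p under 0.05 in limma. When control 3 was left out in CA3 and in CA1, an alternative chosen with the values known, Grik4 was called at -1.71 (limma adjusted p = 0.0472). Across all alternatives its adjusted p in limma ran from 0.0402 to 0.958. Without the CA1 lesion array only the CA3 lesion effect is left, at -0.71.

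**Figure D2:**
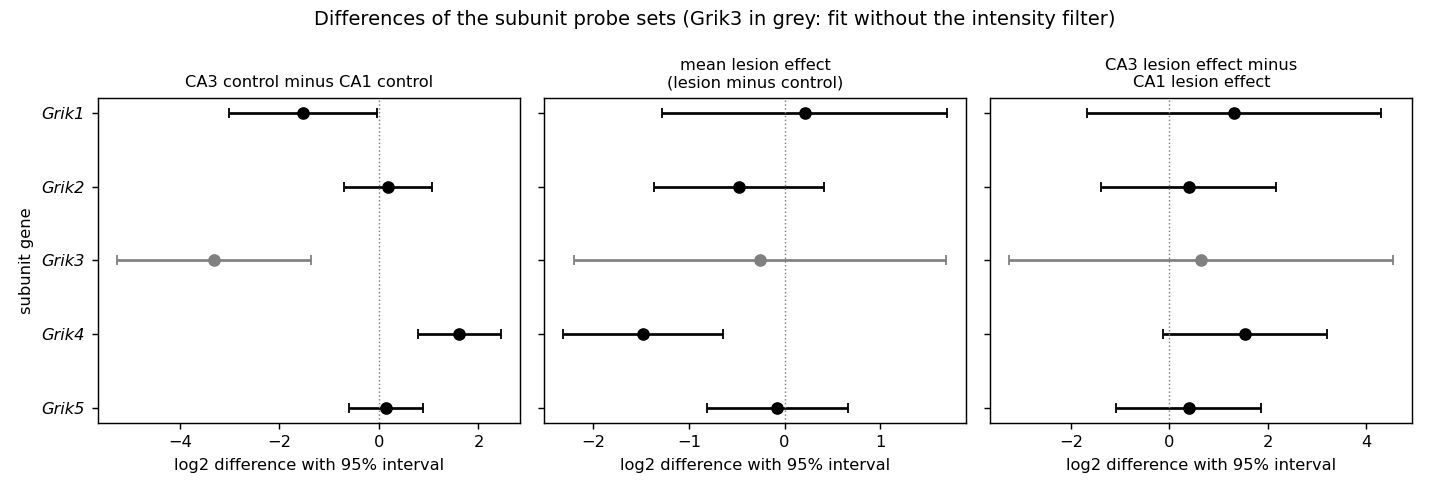
Log2 differences of the 5 subunits in 3 contrasts, as points with 95% limma intervals; Grik3, in grey, comes from the fit without the intensity filter. In the field contrast the intervals of Grik4 (0.78 to 2.45), Grik3 and Grik1 lie to one side of 0, and in the mean lesion effect that of Grik4 alone does, with no value called after adjustment.

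Neuronal and glial markers were read on the same lesion arrays, and in the lists given here 0 were called for the mean lesion effect (limma). The 8 neuron markers were all lower in the mean lesion effect (median -0.31). Below all controls lay 4 of 8 in CA3 and 2 of 8 in CA1, but 0 of 8 in both fields. The share of all probe sets was 6.81% for both fields. It was not counted for single fields, so the single-field counts cannot be read against a background. The summed intensity of the neuron markers was 136860 on the CA3 lesion array, against 142226 to 220772 in CA3 controls. It was 92049 on the CA1 lesion array, against 90790 to 117646 in CA1 controls. Lesion arrays lay above all controls for 31.9% of all probe sets in CA3 and 19.6% in CA1. Of 10 microglia markers 8 did so in CA3 and 8 in CA1. Their sum was 79701 on the CA3 lesion array, against 6351 to 61827 in CA3 controls, and 108274 on the CA1 lesion array, against 6414 to 76005 in CA1 controls. Of 7 myelin markers, 5 lay above all controls in each field. Their sums were 649332 on the CA3 lesion array, against 76037 to 471756, and 581521 on the CA1 lesion array, inside 56996 to 633519. Of 7 astrocyte markers all 7 were higher in the mean lesion effect (median 0.24), and their sum was 1327575 on the CA3 lesion array, against 801350 to 921515 in CA3 controls, and 1199296 on the CA1 lesion array, inside 899870 to 1261858. CA3 pyramidal markers summed to 20599 on the CA3 lesion array, against 21204 to 29333 in CA3 controls. CA1 pyramidal markers summed to 70180 on the CA1 lesion array, inside 60095 to 117943 in CA1 controls. Interneuron markers summed to 49028 on the CA3 lesion array, against 57726 to 75060 in CA3 controls. On the CA1 lesion array they summed to 63429, against 64232 to 114151 in CA1 controls. Below all controls in both fields lay 2 of 9, beside the 6.81% given above. Bright genes weigh most in such sums. Some positions differed for means of log2 values, each gene set against its own mean over the 8 arrays. CA3 pyramidal markers stood at 0.455 on the CA3 lesion array, inside 0.338 to 0.568 in CA3 controls. Interneuron markers stood at 0.019 on the CA1 lesion array, inside -0.283 to 0.691 in CA1 controls. Myelin markers stood at 1.37 there, above the highest CA1 control at 1.20. No marker value in these lists was at 0, and the part of these shifts in the Grik4 values was not tested.

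A higher 3′ to 5′ ratio of Gapdh signal accompanies RNA degradation, and this ratio was 5.23 on the CA3 lesion array, against 3.75 to 3.93 in CA3 controls. It was 4.65 on the CA1 lesion array, against 3.71 to 5.0 in CA1 controls, a range that holds it. The same ratio of Actb lay inside the controls in both fields, at 19.8 on the CA3 lesion array, against 15.0 to 21.4 in CA3 controls, and at 17.3 on the CA1 lesion array, against 14.5 to 22.2 in CA1 controls. On every array 3′ signal exceeded 5′ signal. Over the 8 arrays the ratio ran from 3.71 to 5.23 for Gapdh and from 14.5 to 22.2 for Actb. The part of RNA quality in the values of Grik4 or of the other subunits was not tested. The microglia level (mean of log2 values, each gene set against its own mean over the 8 arrays) was 1.51 on CA1 control 3 and 1.79 on the CA1 lesion array. CA1 control 3 had 650 for Grik4, the lowest of the CA1 controls, against 223 on that lesion array. In CA3, control 3 had a microglia level of 0.99 and 3106 for Grik4, and the lesion array had 1.33 and 2110. The part of microglia in the Grik4 values was not tested.

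**Figure D3:**
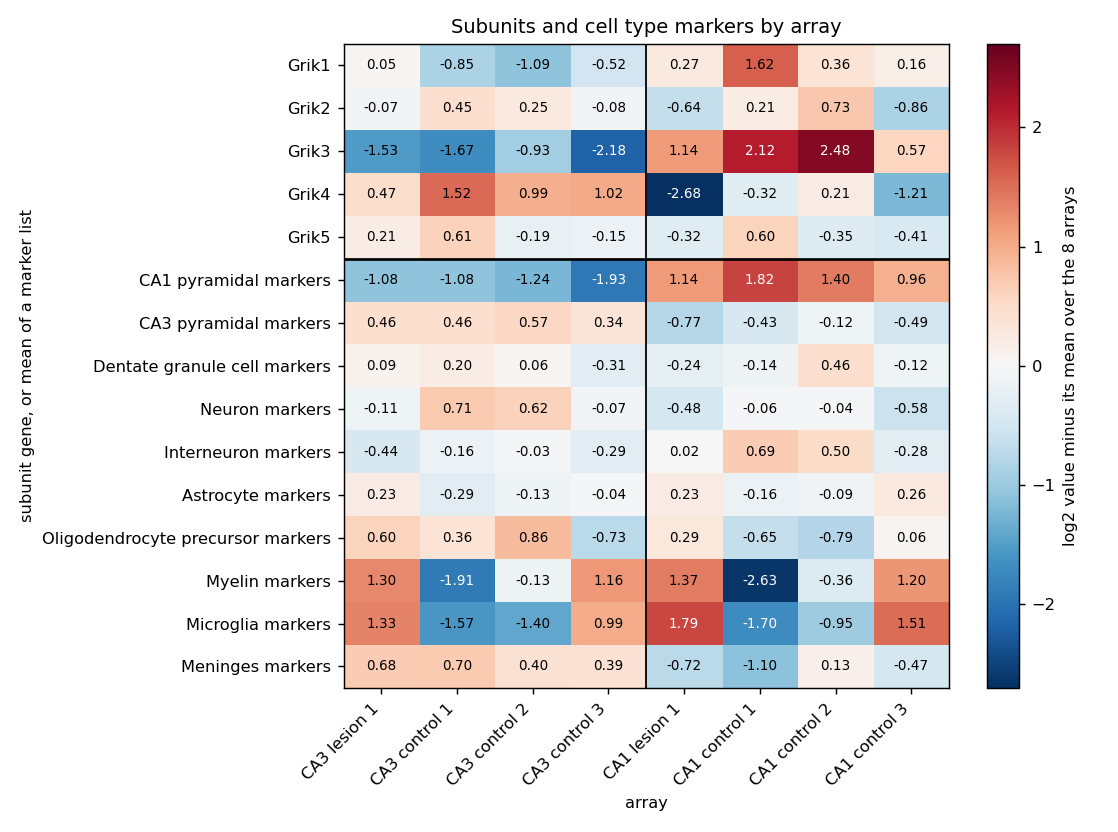
Log2 values of the 5 subunits (upper rows) and mean log2 values of the marker lists (lower rows), each set against its own mean over the 8 arrays, with CA3 arrays on the left and CA1 arrays on the right. Grik4 is lowest on the CA1 lesion array (-2.68), Grik3 follows the CA1 pyramidal markers across the fields, and the microglia and myelin lists are high on both lesion arrays and on control 3 of both fields.

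The other subunits lay mostly inside their controls. Grik1 was above all CA3 controls on the CA3 lesion array, at 421 against 183 to 279, a position shared by 31.9% of all probe sets. The median intensity of that array was also higher, at 738 against 561 to 658 in CA3 controls. By rank, 36.8% of its probe sets were dimmer than Grik1, against 27.2% to 35.7% on CA3 controls. The Grik1 difference in CA3 was 0.87, and 0.55 after quantile normalisation. On the CA1 lesion array Grik1 lay inside the controls, at 492 against 455 to 1286. Grik2 was 1396 on the CA3 lesion array, against 1390 to 2003 in CA3 controls, and 936 on the CA1 lesion array, against 801 to 2449 in CA1 controls. Grik3 was 28.9 on the CA3 lesion array, inside 12.5 to 51.9, and 269 on the CA1 lesion array, inside 177 to 702. The mean lesion effects were 0.21 ± 0.67 for Grik1, -0.47 ± 0.40 for Grik2, -0.26 ± 0.90 for Grik3 and -0.08 ± 0.33 for Grik5 (SE over 2 lesion and 6 control arrays), with limma adjusted p-values from 0.844 to 0.981. The 95% intervals reached from -0.82 to 0.66 for Grik5 and from -1.36 to 0.42 for Grik2, so changes of such sizes are not shown to be absent.

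Lesion effects were compared between the fields in the same fit, which assumes that each lone lesion array varies as the controls do, so the errors carry no spread of lesion arrays. For Grik4 the CA3 effect exceeded the CA1 effect by 1.54 ± 0.75 (SE, 1 lesion array per field), with a 95% interval of -0.14 to 3.21 and a limma unadjusted p of 0.0679. The other differences ran from 0.39 for Grik2 and Grik5 through 0.65 for Grik3 to 1.32 for Grik1. They depended on single controls: Grik2 was 0.04 without CA1 control 2 and 0.83 without CA1 control 3, Grik5 was 0.07 without CA1 control 1 and 0.65 without CA3 control 1, Grik3 was 0.27 without CA1 control 2 and 1.22 without CA1 control 3, and Grik1 was 0.86 without CA1 control 1. The limma adjusted p was 1.0 for every subunit, and 0 of 18625 probe sets, or 0%, were called, with 576 at an unadjusted p under 0.05.

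Ordered by intensity, Grik4 ran from the CA1 lesion array (223) through the CA1 control mean (1211 ± 559) and the CA3 lesion array (2110) to the CA3 control mean (3512 ± 766, SD, n = 3 each). Each step in that order was free of overlap with the arrays of the next group. Grik3 ran from the CA3 lesion array (28.9) and the CA3 control mean (29.6 ± 20.2), which did not differ beyond the spread, through the CA1 lesion array (269) to the CA1 control mean (475 ± 270), whose range holds that lesion array. Grik1 ran from the CA3 control mean (227 ± 48.9) through the CA3 lesion array (421) and the CA1 lesion array (492) to the CA1 control mean (756 ± 460), with the CA1 lesion array inside the CA1 range. For Grik2 and Grik5 both lesion arrays lay inside the controls of their own field, and no order of the groups stood clear of the spread.

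Genes with the most similar pattern were found by the mean absolute difference, over the 8 arrays, of log2 values set against each probe set's own mean, among tested probe sets of other genes. For Grik3 they were Mpped1 (0.35), Fibcd1 (0.43) and Bcl11b (0.49), set beside a mean absolute deviation of 1.58 of Grik3 itself. Of these, Mpped1 and Fibcd1 belong to the CA1 pyramidal marker list. For Grik4, with a deviation of 1.05, they were Aard (0.37), Lsm11 (0.41) and Syn2, a synaptic vesicle protein gene (0.45). All 3 were lowest on the CA1 lesion array, at -1.55, -1.58 and -2.11, where Grik4 stood at -2.68. That follows from choosing them by likeness to Grik4 over the same arrays. For Grik1 (deviation 0.61) they were the transcription factor gene Foxp1 (0.24), Sbk1 (0.26) and Ccnq (0.27). For Grik2 (0.41) they were the potassium channel subunit gene Kcnmb4 (0.12), Fbll1 and Slc2a6 (both 0.16), and for Grik5 (0.36) Tmem59l (0.11), Hs6st1 and Lurap1l (both 0.12). These are the nearest of many probe sets over few arrays and are given as a description.

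Genes known to act with kainate receptors, and other glutamate receptor genes, were read from lists chosen with earlier results of these data known. Of 38 genes, 34 had a named probe set and 29 were tested, each by its brightest probe set. For the field contrast 0 of 29 were called and for the mean lesion effect 0 of 29, beside 0.526% and 0% of all probe sets tested. Without overlap between control fields, 2 of 34 lay above in CA3 (5.88%, against 4.72% of all probe sets) and 3 of 34 below (8.82%, against 8.56%), shares near the background.

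The auxiliary subunits Neto1 and Neto2, membrane proteins that slow the gating of kainate receptors, had field differences of 0.30 ± 0.36 and -0.98 ± 0.47 (SE, n = 3 per field), and mean lesion effects of -0.39 and -0.43. Among 14 tested genes for scaffolds, trafficking and modification the median field difference was -0.11, against -0.04 for all probe sets tested. Its members with the smallest p were Snap25, a release machinery protein that also binds GluK5 (0.61 ± 0.19, limma adjusted p = 0.340), and Ctnnb1, which encodes beta-catenin (-0.32 ± 0.15, limma adjusted p = 0.611). For the mean lesion effect they were the scaffold genes Grip1 (-1.71 ± 0.54) and Dlg2 (-1.01 ± 0.33), both with a limma adjusted p of 0.771. RNA editing can recode the pore of GluK1 and GluK2. In the RNA editing list, Adar differed by 0.47 ± 0.24 and Adarb1 by 0.59 ± 0.33 between the fields. Adarb2 lay under the filter, and its controls were lower in CA3 without overlap, as for 8.56% of all probe sets.

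Nrxn3, a presynaptic neurexin to which C1q-like proteins of mossy fibres bind, had intensities of 7968, 7595 and 5629 in CA3 controls 1 to 3, against 2874, 4082 and 2578 in CA1 controls 1 to 3. The fields did not overlap, as for Grik4, and the difference was 1.16 ± 0.24 (SE, n = 3 per field, limma adjusted p = 0.0940). Its lesion arrays had 4750 in CA3 and 1953 in CA1, below all controls of each field, as for 6.81% of all probe sets. Of the 34 listed genes with a probe set, Grip1, Dlg2, Camk2a, Grin1 and Grin3b also lay below all controls in both fields, beside the same 6.81%. This position of Grik4 was therefore not particular to it. The mean lesion effect of Nrxn3 was -0.61 ± 0.24 (limma adjusted p = 0.771). C1ql3, one of those C1q-like proteins, differed by 0.47 ± 0.87 between the fields. It had 96.8 on the CA3 lesion array, against 242 to 577 in CA3 controls, and 905 on the CA1 lesion array, against 99.8 to 470 in CA1 controls, so the lone lesion arrays lay on opposite sides of their controls. The difference between its lesion effects was -3.50 ± 1.74 (limma adjusted p = 1.0).

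The 4 AMPA receptor genes had a median field difference of -0.18, with the smallest p-values for Gria2 (-0.23 ± 0.17) and Gria3 (-0.25 ± 0.20), and all 4 overlapped between the fields. The 5 tested NMDA receptor genes had a median of -0.60, and the smallest p-values belonged to Grin2c (-0.63 ± 0.27, limma adjusted p = 0.580) and Grin3b (-1.46 ± 0.74, limma adjusted p = 0.641), of which Grin3b did not overlap. For the mean lesion effect Grin3b (-1.35 ± 0.74) and Grin1 (-0.52 ± 0.31) had the smallest p, the NMDA median was -0.27 and the AMPA median -0.09, beside 0.02 for all probe sets tested. Grid1, a delta receptor gene, lay under the filter. Whether kainate receptor genes differ from these families in their field or lesion differences was not tested.

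**Figure D4:**
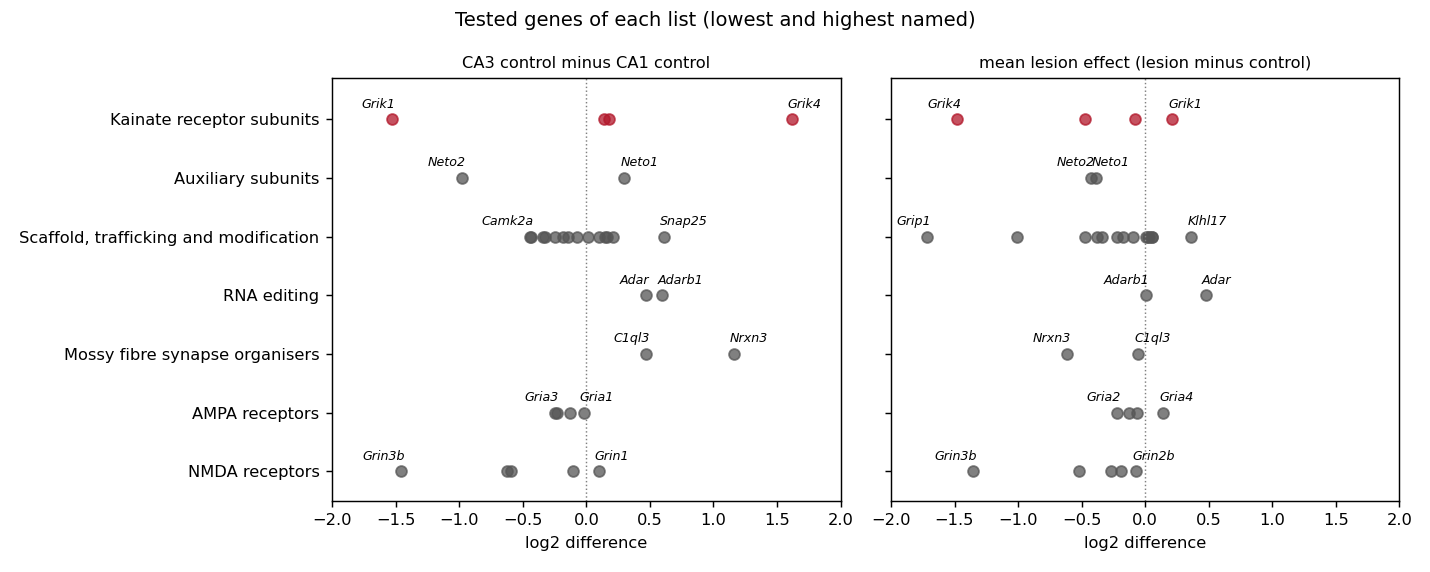
Log2 differences of every tested gene of each list, for CA3 against CA1 controls on the left and for the mean lesion effect on the right; each point is 1 gene, and the lowest and highest of a list are named. Grik1 and Grik4 lie at -1.53 and 1.62 in the left panel, where Nrxn3 (1.16) and Grin3b (-1.46) are the outermost of the other lists, and Grik3 is not drawn because it was outside this fit.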

How the data were processed

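Gene expression was measured on 8 arrays. The authors deposited linear signal intensities, 1 per probe set and array, and from the values they were scaled to a common 2% trimmed mean. The software and its version: not given in the sources used here. Precision is limited by the number of arrays.

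Removing 57 array controls from 31099 probe sets left 31042. Gene names came from the platform annotation (20832 probe sets with 1 symbol, 436 with several, 9831 with none), updated by gene identifier to RefSeq GRCr8 (20764 matched, 0 changed). Values were converted to log2(intensity + 16) and fitted with limma 3.58.1 in R 4.3.3, with 1 coefficient per group, an intensity trend in the variances and 4 residual degrees of freedom. Lone lesion arrays are assumed to vary like controls. The Benjamini-Hochberg adjustment covered all 18625 probe sets tested, and the threshold was 0.05. The field contrast was also run on simulated arrays with known changes and independent noise drawn from the fit's own variance model. That run holds no shifts shared by a whole array and no lesion contrast. It therefore cannot show how well the fit suits these arrays.

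The members, gene lists, marker lists and tests were chosen with earlier results of these data known. All 5 subunit probe sets are named. For each, the 3 genes nearest in pattern are named, and of each list the members past the threshold or, where none passed, the 2 with the smallest p. Values of C1ql3 and Nrxn3 on single arrays are given after they were seen. Alternatives were quantile normalisation, constants of 1 and 64, no filter or the 60th percentile, no intensity trend, the replicate number as a block, an additive lesion model, the 6 controls alone and each array left out. Fits without control 1, or control 3, of both fields were added after the data were seen.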

Additional observations from a re-analysis of the deposited data

How the results depend on the processing

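The 15 subunit differences with a test had 246 values under the alternatives, of which 231 kept their direction and their side of the threshold, 3 were called that had not been, and 12 turned in sign. The 3 were all Grik4, namely the field difference and the mean lesion effect in the fit with the replicate block, and the mean lesion effect without control 3 of both fields. With the replicate block, 1 of 4 subunits tested was called in the field contrast (Grik4, 1.62, limma adjusted p = 0.0303) and 1 for the mean lesion effect (Grik4, -1.71, limma adjusted p = 0.0402). The numbers did not pair the arrays by the rule used, since deviations of same-numbered controls correlated at 0.155, 0.0601 and 0.306 across probe sets and 1 of these is under 0.1, although every control correlated best with its own number. Without control 3 of both fields 1 subunit was called for the mean lesion effect, and 0 were called in either contrast when any single array was left out.

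The 12 sign turns were in values that were not called. With 1 lesion array left out, the mean lesion effect becomes that of the other field alone, so those values are another quantity. Without the CA3 lesion array it was -0.45 for Grik1 (0.21 in the main fit), -0.58 for Grik3 (-0.26) and -0.27 for Grik5 (-0.08). Without the CA1 lesion array it was 0.87, 0.068 and 0.12. Sign turns of that kind were Grik1 without the CA3 lesion array, and Grik3 and Grik5 without the CA1 lesion array. The Grik5 mean lesion effect was also positive without CA1 control 1 (0.09) and CA3 control 1 (0.05). With each array left out in turn, field differences ran from -0.26 (no CA1 control 3) to 0.53 for Grik2. For Grik5 they ran from -0.12 (no CA3 control 1) to 0.47, and leaving out CA1 control 2 (-0.0078) or CA1 control 3 (-0.04) also turned the sign. With the replicate block the mean lesion effect was -0.23 for Grik1 and -0.66 for Grik5 (limma adjusted p = 0.201). The lesion value in CA3 was then -0.47 in place of 0.12 for Grik5, and 0.43 in place of 0.87 for Grik1. Leaving control 3 out of both fields gave a Grik2 field difference of -0.12, and leaving control 1 out of both gave a Grik5 lesion effect of 0.22. The cause was not tested.

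The background counts moved more. For the field contrast, 98 probe sets were called, against 0 without the intensity trend, 358 with the replicate block, 47 and 24 on dropping CA1 control 1 or 2, 27 and 24 on dropping CA3 control 1 or 2, and 4 on dropping control 1 from both fields. For the mean lesion effect, 0 were called, against 697 with the replicate block, 1 on dropping CA3 control 3 and 166 on dropping control 3 from both fields. Of the 29 listed partner genes, 2 were called in the field contrast with the replicate block. Signal over background could not be read for the dim Grik3 probe set.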
